A study of Mus musculus with 14 samples.

Results

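Phase II conjugation enzymes attach a water-soluble group to a drug, hormone, bile acid or metabolic product so that it can leave the body. They were taken here as every gene of the deposited count table whose symbol begins as a UDP-glucuronosyltransferase of families 1 to 3 (UGT), a cytosolic sulfotransferase (SULT) or a glutathione S-transferase (GST), pseudogenes left out. The rule matched 66 of the 45706 genes in the table, 21 UGT, 21 SULT and 24 GST. Of these, 49 had at least 10 counts in 3 or more of the 14 libraries and were analysed (18 UGT, 9 SULT and 22 GST), and each of the 49 was among the 15674 genes tested. The other 17 never exceeded 9 counts in a library. They included Sult2a1 and Sult3a1, sulfotransferases of female mouse liver, with 11 and 20 counts over all libraries.

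All libraries came from the liver of male C57BL6/J mice that were 8 weeks old at the start and received chow or a MASH diet for 16 weeks, MASH being metabolic dysfunction-associated steatohepatitis. The MASH OAL group (3 libraries) stayed on the MASH diet for 6 more weeks with C18:1-leucine, oleic acid joined to the amino acid leucine. The MASH OA group (4 libraries) stayed on it for 6 more weeks with C18:1, the fatty acid itself. The MASH group (3 libraries) carries no compound in its titles, and whether it received vehicle or the 6 further weeks of diet is not stated, so in comparisons with MASH the compound cannot be told apart from diet time and age. The CD group (4 libraries) received chow. No transgene or deletion is named, doses are not given, and the labels do not say whether each library is a separate mouse, so p-values measure the spread between libraries.

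Libraries held 33821874 to 51107248 counts. For 2 libraries the treatment label disagreed with the title: MASH OA 1 is tagged as diet only and MASH OAL 1 as OA. Groups follow the titles. For MASH OAL against MASH OA, calls are also given without these libraries and with groups from the tags. Hepatocyte markers were abundant in every library, with summed levels of 74736 to 104538 CPM (counts relative to library size, the unit of all levels here) in MASH OAL, 52673 to 70486 in MASH OA, 66122 to 77152 in MASH and 104228 to 128319 in CD livers, over 12 markers. Bile duct markers summed to 399 CPM in MASH 4, 462 in MASH OA 1 and 424 in MASH OA 3, against 46.4 to 229 CPM in the other 11 libraries. Recruited macrophage markers were highest in the same libraries, at 878 CPM in MASH 4, 962 in MASH OA 1 and 800 in MASH OA 3. Spp1 is in both marker lists, so the sums are not separate, and leaving these libraries out removes both signals. Pancreatic acinar markers summed to 1072 CPM in MASH OAL 2 and 243 in CD 2, and to no more than 7.68 CPM elsewhere.

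UGT enzymes sit in the endoplasmic reticulum and transfer a sugar, mostly glucuronic acid, from a nucleotide sugar to bilirubin, steroids, bile acids and phenols. SULT enzymes transfer sulfate from the donor PAPS in the cytosol, and GST enzymes join glutathione to electrophiles such as lipid peroxidation products. In liver these genes are expressed mainly in hepatocytes. They are known targets of nuclear receptors such as CAR and PXR, of the dioxin receptor AHR through the xenobiotic response element, of NRF2 through the antioxidant response element, and of the liver factor HNF1.

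Many members are neighbours. On GRCm38 the 8 analysed Ugt1a genes lie at chr1:88055388-88220002 and share their last exons, the 8 Ugt2a and Ugt2b genes at chr5:86889767-87424203, the 7 Gstm genes at chr3:107895821-108044894, 4 Gsta genes at chr9:78182774-78355788 and the 3 Gstp genes at chr19:4035407-4059569. Sequence is shared between copies: 16 of the 49 members had over 20% of their 50-base exon windows in another gene. They are all 8 Ugt1a genes, Ugt2b5, Ugt2b38, Gsta1, Gsta2, Gsta5, Gstm3, Gstp1 and Gstp2. Between 50.3% and 82.7% of the exon bases of an Ugt1a gene belong to another gene of the locus as well. The labels do not say how reads from such copies were divided, so levels of these 16 members are uncertain.

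Promoters are shown for some of the members named below, from RefSeq on GRCm38.p6. Others, among them Ugt2b5 and Gstp1, are not shown. Each is given as 250 bases before the start and 50 after it on the gene's strand, 5′ to 3′. Capitals mark a match to a searched motif. Sult2a8 and Ugt2a3 are the members that passed in both comparisons with calls whichever single library was left out, and neither promoter held a match (Sult2a8 chr7:14446538-14446837, minus strand, the outer of 2 listed starts; Ugt2a3 chr5:87337146-87337445, minus strand).
Sult2a8: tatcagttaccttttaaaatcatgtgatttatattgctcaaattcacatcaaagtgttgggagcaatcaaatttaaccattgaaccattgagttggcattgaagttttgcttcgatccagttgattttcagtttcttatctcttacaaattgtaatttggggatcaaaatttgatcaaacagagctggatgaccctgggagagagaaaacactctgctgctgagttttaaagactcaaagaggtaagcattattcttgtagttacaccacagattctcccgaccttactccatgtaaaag
Ugt2a3: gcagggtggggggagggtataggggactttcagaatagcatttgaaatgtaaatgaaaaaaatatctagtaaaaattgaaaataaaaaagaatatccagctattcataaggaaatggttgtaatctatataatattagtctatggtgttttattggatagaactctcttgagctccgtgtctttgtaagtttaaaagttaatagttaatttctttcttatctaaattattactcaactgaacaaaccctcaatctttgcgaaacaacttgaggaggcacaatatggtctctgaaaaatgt
Ugt1a1 and Ugt1a9 share one locus and are read from separate starts (chr1:88211709-88212008 and chr1:88070529-88070828, plus strand). In both, the capitals mark, on the other strand, the first 10 letters of the paired HNF1 site, which begin at −45 in Ugt1a1 and at −95 in Ugt1a9.
Ugt1a1: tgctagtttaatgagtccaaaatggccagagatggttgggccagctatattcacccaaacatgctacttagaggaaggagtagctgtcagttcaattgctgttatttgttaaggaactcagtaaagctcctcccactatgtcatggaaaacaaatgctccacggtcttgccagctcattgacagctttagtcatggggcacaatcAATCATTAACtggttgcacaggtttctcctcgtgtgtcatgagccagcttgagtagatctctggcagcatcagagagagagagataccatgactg
Ugt1a9: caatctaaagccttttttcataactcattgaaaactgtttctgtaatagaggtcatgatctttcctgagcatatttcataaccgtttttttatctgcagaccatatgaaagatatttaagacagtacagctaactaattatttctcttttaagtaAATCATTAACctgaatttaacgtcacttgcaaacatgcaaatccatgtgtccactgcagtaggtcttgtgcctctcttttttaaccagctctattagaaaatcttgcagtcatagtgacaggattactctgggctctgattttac
Gsta1 (chr9:78230419-78230718, plus strand) had the largest fitted rise in MASH livers among the members that passed. Its capitals mark the xenobiotic core GCGTG at −2. Gsta3 (chr1:21240335-21240634, plus strand) is the abundant alpha class gene, and its capitals mark the antioxidant core TGACNNNGC at −121.
Gsta1: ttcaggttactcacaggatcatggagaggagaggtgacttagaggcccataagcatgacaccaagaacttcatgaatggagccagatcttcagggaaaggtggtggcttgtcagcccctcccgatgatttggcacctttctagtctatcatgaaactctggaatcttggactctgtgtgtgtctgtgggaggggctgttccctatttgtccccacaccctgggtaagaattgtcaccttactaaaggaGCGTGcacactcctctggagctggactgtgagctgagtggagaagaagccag
Gsta3: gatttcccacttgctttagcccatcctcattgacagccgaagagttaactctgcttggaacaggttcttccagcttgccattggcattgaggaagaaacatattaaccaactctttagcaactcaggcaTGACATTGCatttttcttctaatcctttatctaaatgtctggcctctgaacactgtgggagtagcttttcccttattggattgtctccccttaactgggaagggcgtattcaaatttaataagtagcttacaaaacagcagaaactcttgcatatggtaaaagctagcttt
Promoters were listed for 43 of the 49 members and searched on both strands, with overlaps allowed. These 43 genes have 54 listed promoters. Members are counted by gene and all promoters singly, so the 2 shares are in unlike units. By promoter, 3 of the 54 held the antioxidant core, 13 the xenobiotic core and 4 the first 10 letters of the HNF1 site. The antioxidant core was found in 3 of the 43 genes (Gsta3, Gstm5 and Gstm7), beside 12.4% of all 32851 promoters listed, and none of the 3 passed the test between MASH and CD. The xenobiotic core was found in 11 of the 43 genes, beside 32.4% of all promoters. In MASH livers 2 of these 11 rose and 3 fell, beside 10.2% and 46.9% of all 49 members. The full paired HNF1 site matched no member. Its first 10 letters, a form chosen after that, matched 4 of the 43 (Sult1d1, Ugt1a1, Ugt1a9 and Ugt1a10) and 0.399% of all promoters. Of these 4, Ugt1a1, Ugt1a9 and Ugt1a10, all of one locus, fell in MASH livers, beside 46.9% of all 49 members. Ugt1a10, at 0.382 CPM in MASH and 1.38 CPM in CD livers, did not pass without MASH 3 or without MASH 4. Ugt1a1 did not pass without CD 2 or without MASH 4. A match is a description of letters, not of a bound site.

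Levels between genes are compared per kilobase of exon. Ugt2b5, Ugt2b36 and Ugt1a1 led the UGT family, with 309, 261 and 257 CPM per kilobase in MASH OAL livers and 578, 360.2 and 292 in CD livers. Sult1a1, Sult2a8 and Sult1d1 led the sulfotransferases and together made up 96.7% of their summed level per kilobase in MASH OAL livers and 97.4% in CD livers. Gstp1, Gstm1 and Gsta3 led the GST family. The order of the first pair differed between groups. The level of Gstp1 per kilobase divided by that of Gstm1 was 2.17, 1.26 and 0.690 in MASH OAL livers, 0.699, 0.960, 0.494 and 0.811 in MASH OA livers, 0.833, 0.535 and 0.628 in MASH livers and 2.77, 2.70, 2.05 and 1.85 in CD livers. Gstp1 was thus above Gstm1 in every CD library and below it in every MASH and MASH OA library, while the MASH OAL libraries fell on either side. Gstp1 made up 31.5% of the summed GST level per kilobase in MASH OAL livers, 24.6% in MASH OA livers, 22.8% in MASH livers and 46.3% in CD livers.

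The MASH diet was set against chow first. Of the 49 members, 5 rose and 23 fell in MASH livers relative to CD livers (edgeR, adjusted p under 0.05), or 10.2% and 46.9%. Of all genes tested, 35.5% passed, 20.4% higher and 15.1% lower. The median log2 fold change was −0.45 over the members and 0.0064 over all genes. The families differed in their counts: 12 of 18 UGT fell and none rose, 4 of 9 SULT fell and none rose, and 7 of 22 GST fell while 5 rose. All 18 UGT had a negative log2 fold change, with a median of −0.69, while the GST median was −0.075. Groups did not overlap for 7 members that were higher and 23 that were lower in MASH, or 14.3% and 46.9%, beside 22.5% and 17.8% of all genes. The summed level of the 12 hepatocyte markers was 62.2% of CD in MASH livers, and 9 of these 12 fell as well. Recruited macrophage markers summed to 400.4 to 878 CPM in MASH livers and 61.4 to 127 CPM in CD livers, with 9 of 10 higher, and bile duct markers to 92.0 to 399 CPM in MASH livers and 46.4 to 62.7 CPM in CD livers, with 2 of 12 higher; no marker of these lists was at 0 in all libraries. In whole liver, fewer hepatocytes and less RNA per hepatocyte cannot be told apart, and the part of cell makeup in the members' values was not tested.

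**Figure D1:**
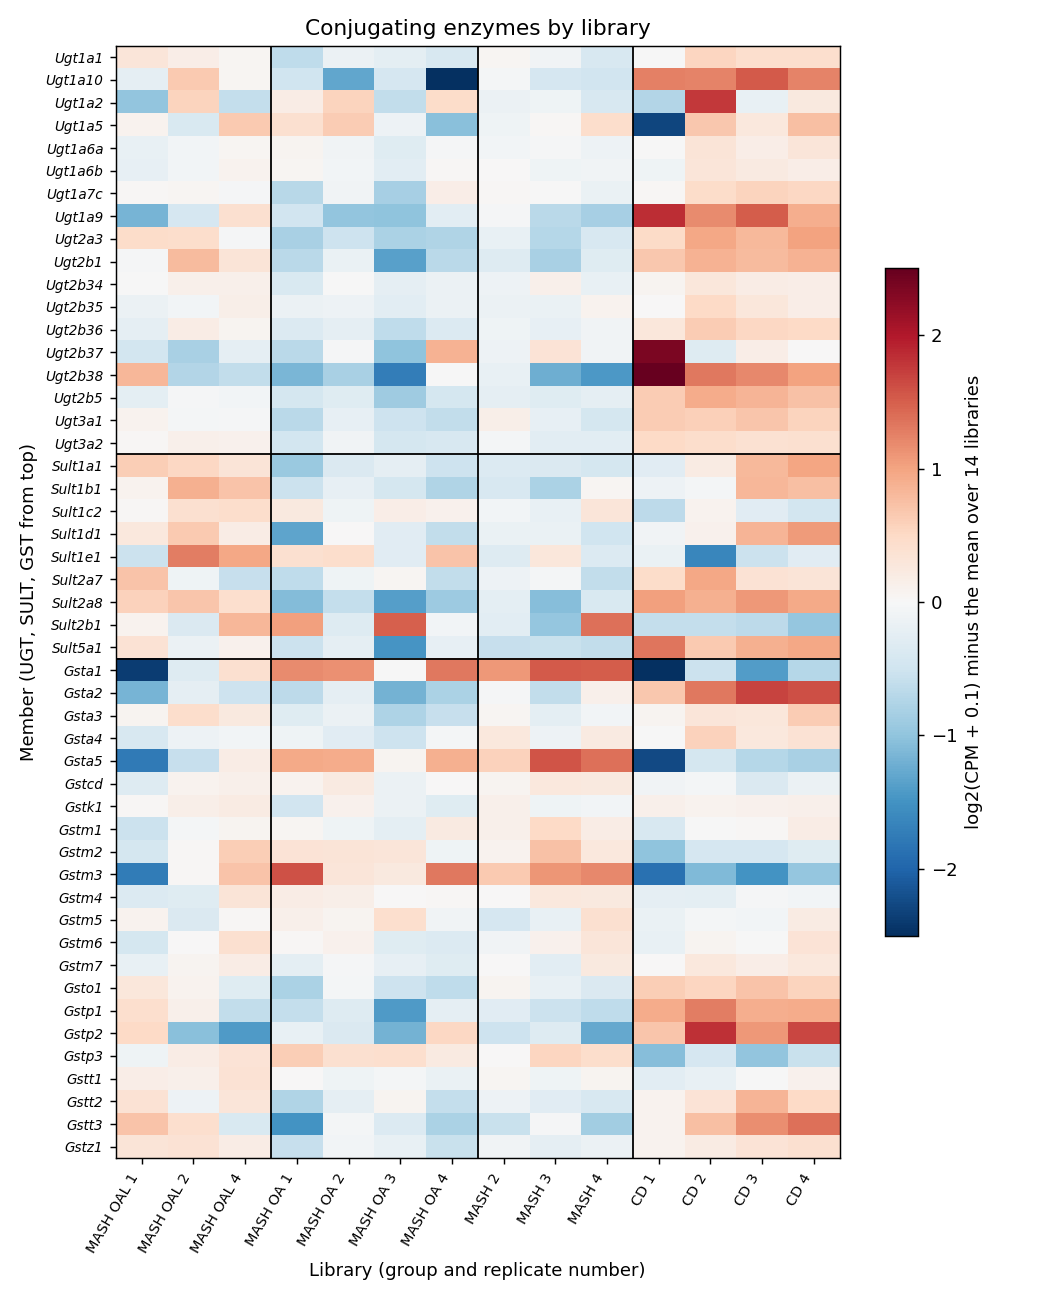
Heat map of log2(CPM + 0.1) of the 49 members (rows, by family) in the 14 libraries (columns, by group), each row centred on its mean, with colours cut at 2.5 in either direction. Most UGT and SULT rows are highest in the CD columns, and the rows of Gsta1, Gsta5 and Gstm3 are low there and in MASH OAL 1.

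Among the glucuronosyltransferases, Ugt2b5 had the smallest p. It shares 41.7% of its exon windows with other genes and is of uncertain level. Ugt2b enzymes of rodents and people act on steroids, bile acids and drugs. Ugt2b5 (chr5:87124960-87140318) had 532, 502 and 531 CPM in MASH livers and 965, 1185, 1116 and 1032 CPM in CD livers, and the groups lie far apart (log2 fold change −1.04, SE 0.13, adjusted p = 8.5e-05). Ugt2b1 fell to 267 ± 49.0 CPM in MASH livers, against 644 ± 41.7 in CD livers (SD, n = 3 and 4; 2.41-fold lower, adjusted p = 0.00187). Ugt2b36 fell less, by 1.54-fold (log2 fold change −0.62, adjusted p = 0.00206). Ugt2a3 (chr5:87324972-87337195), whose human counterpart acts on bile acids, had 159.5, 112 and 138 CPM in MASH livers and 256, 356, 320.4 and 366 CPM in CD livers. The highest MASH library lies well under the lowest CD library, and Ugt2a3 was 2.38-fold lower (log2 fold change −1.25, SE 0.16, adjusted p = 0.000103).

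Ugt1a9, with 27.8, 17.7 and 16.0 CPM in MASH livers and 102, 64.7, 81.2 and 53.6 CPM in CD livers, was lower (3.68-fold, adjusted p = 0.00211). Its groups did not overlap, though CD libraries spread over a wide range. Ugt1a1, the enzyme that conjugates bilirubin, had 521, 477 and 383 CPM in MASH livers and 505, 739.9, 674 and 682 CPM in CD livers. Here MASH 2 lies above CD 1, and the fall of 1.41-fold (adjusted p = 0.0223) did not pass without CD 2 (adjusted p = 0.0579) or without MASH 4 (adjusted p = 0.111). The interval of the log2 fold change ran from −2.67 to −1.09 for Ugt1a9 and from −0.83 to −0.17 for Ugt1a1 (95%), a difference that was not itself tested. Ugt3a1 and Ugt3a2, which in people use other sugars than glucuronic acid, lie side by side at chr15:9276888-9370955. Ugt3a1 fell to 100.3 ± 21.2 CPM in MASH livers, against 170.2 ± 7.13 in CD livers (adjusted p = 0.000872). Ugt3a2 fell to 294 ± 25.0 CPM in MASH livers, against 448 ± 16.7 in CD livers (adjusted p = 0.000545). The largest fitted fall was that of Ugt2b38, named after its values were seen, a gene of low and uncertain level with 3.23, 1.53 and 1.31 CPM in MASH livers and 43.5, 9.37, 8.69 and 7.51 CPM in CD livers (log2 fold change −3.09, SE 0.75, adjusted p = 0.00779). CD 1 stands far above the other CD libraries, and without it the log2 fold change was −2.07 (adjusted p = 0.0106). Without the libraries rich in bile duct transcripts the call was lost (adjusted p = 0.0638). The 6 UGT that did not pass also had negative log2 fold changes.

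Sult2a8, a bile acid sulfotransferase of mouse liver (chr7:14410686-14446769), had 292, 167 and 268 CPM in MASH livers and 707, 639, 740.5 and 673 CPM in CD livers. Even the highest MASH library lies far under the lowest CD library, a 2.85-fold fall (log2 fold change −1.51, SE 0.20, adjusted p = 0.000112). Sult1a1, which sulfates phenols and is the sulfotransferase with the highest level per kilobase, had 180.4, 178 and 169 CPM in MASH livers and 188, 264, 400.4 and 453 CPM in CD livers. The 3 MASH libraries are close together and the CD libraries are not, with CD 1 only just above MASH 2. Sult1a1 fell by 1.85-fold (adjusted p = 0.0150), but not without MASH 4 (adjusted p = 0.0559). Sult5a1, a gene of low level, fell to 2.95 ± 0.0568 CPM in MASH livers, against 8.93 ± 1.83 in CD livers (3.03-fold, adjusted p = 0.000662). Sult1d1, which sulfates catecholamines, had 88.0 ± 11.0 CPM in MASH livers and 157 ± 59.0 CPM in CD livers and did not pass (log2 fold change −0.83, adjusted p = 0.0531; 95% interval −1.51 to −0.16).

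The glutathione S-transferases moved both ways, within the pi and the alpha class as well. In the pi class, Gstp1 (chr19:4035407-4037985), the pi enzyme that is more abundant in male than in female mouse liver, had 719.5, 599 and 565 CPM in MASH livers and 1673, 2130.4, 1654 and 1673 CPM in CD livers. The highest MASH library lies far under the lowest CD library, and Gstp1 fell by 2.84-fold (log2 fold change −1.50, SE 0.28, adjusted p = 0.00134). Gstp1 shares 33.7% of its exon windows with other genes and is of uncertain level. Its neighbour Gstp3 had 8.08, 11.7 and 11.0 CPM in MASH livers and 3.80, 5.99, 4.00 and 5.45 CPM in CD livers and was 2.13-fold higher (adjusted p = 0.000588). In the alpha class, Gsta1 (chr9:78230656-78242684) had 19.0, 26.1 and 25.5 CPM in MASH livers and 1.15, 6.11, 3.32 and 5.42 CPM in CD livers, a 5.90-fold rise (log2 fold change 2.56, SE 0.58, adjusted p = 0.00551). Gsta5 had 2.24, 4.55 and 3.99 CPM in MASH livers and 0.230, 1.07, 0.856 and 0.795 CPM in CD livers (4.86-fold higher, adjusted p = 0.00333). CD 1 was the lowest library for both Gsta1 and Gsta5. Gsta2, at the same locus, went the other way, with 16.9, 11.2 and 18.9 CPM in MASH livers and 27.6, 43.5, 56.1 and 53.0 CPM in CD livers (2.88-fold lower, adjusted p = 0.00220). These 3 genes share 90.5% (Gsta1), 49.4% (Gsta5) and 49.8% (Gsta2) of their exon windows with other genes and are among the members of uncertain level.

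In the mu class, Gstm3 had 48.5, 66.4 and 71.2 CPM in MASH livers and 8.46, 14.3, 10.9 and 15.7 CPM in CD livers, and the lowest MASH library held 3 times as much as the highest CD library. The rise was 5.02-fold (adjusted p = 0.00348). Gstm3 shares 28.8% of its exon windows with other genes and is of uncertain level. Gstm2 had 45.3, 70.2 and 51.0 CPM in MASH livers and 21.0, 31.7, 31.8 and 34.5 CPM in CD livers (1.87-fold higher, adjusted p = 0.0105), a call that was lost without MASH 3 (adjusted p = 0.0523). Gstm1, the most abundant mu gene, had 915 ± 132 CPM in MASH livers and 738 ± 119 CPM in CD livers and did not pass (log2 fold change 0.31, adjusted p = 0.168). The other 4 Gstm genes did not pass either. Gsto1, an omega enzyme that reduces dehydroascorbate, fell to 55.8 ± 8.58 CPM in MASH livers, against 93.8 ± 5.18 in CD livers (adjusted p = 0.00518). Gsta3, which in mice detoxifies the aflatoxin epoxide, had 838, 681 and 777 CPM in MASH livers and 849, 1002, 990.3 and 1253 CPM in CD livers. Its groups did not overlap, but the difference did not pass (log2 fold change −0.42, adjusted p = 0.0624).

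**Figure D2:**
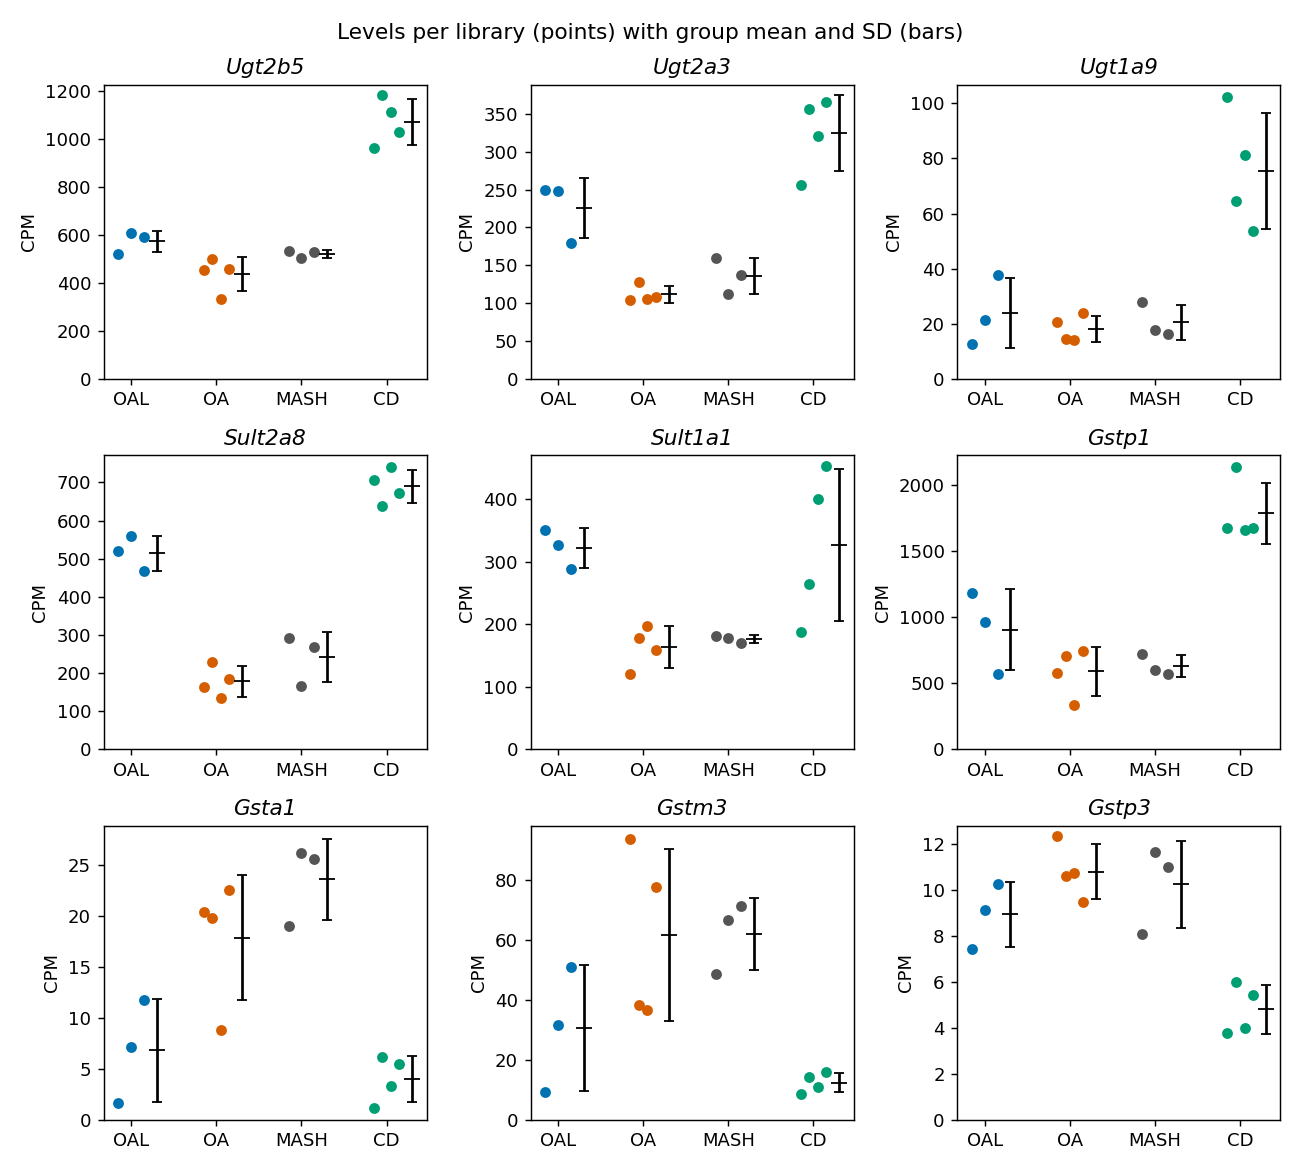
Level of 9 members in CPM (vertical axes, from 0) in each library (points) of MASH OAL, MASH OA, MASH and CD, with the group mean and SD (bars). Ugt2b5, Ugt2a3, Ugt1a9, Sult2a8 and Gstp1 are lower in all libraries of the other groups than in any CD library. Gsta1 and Gstm3 are higher than CD in all MASH OA and MASH libraries but not in MASH OAL 1.

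**Figure D3:**
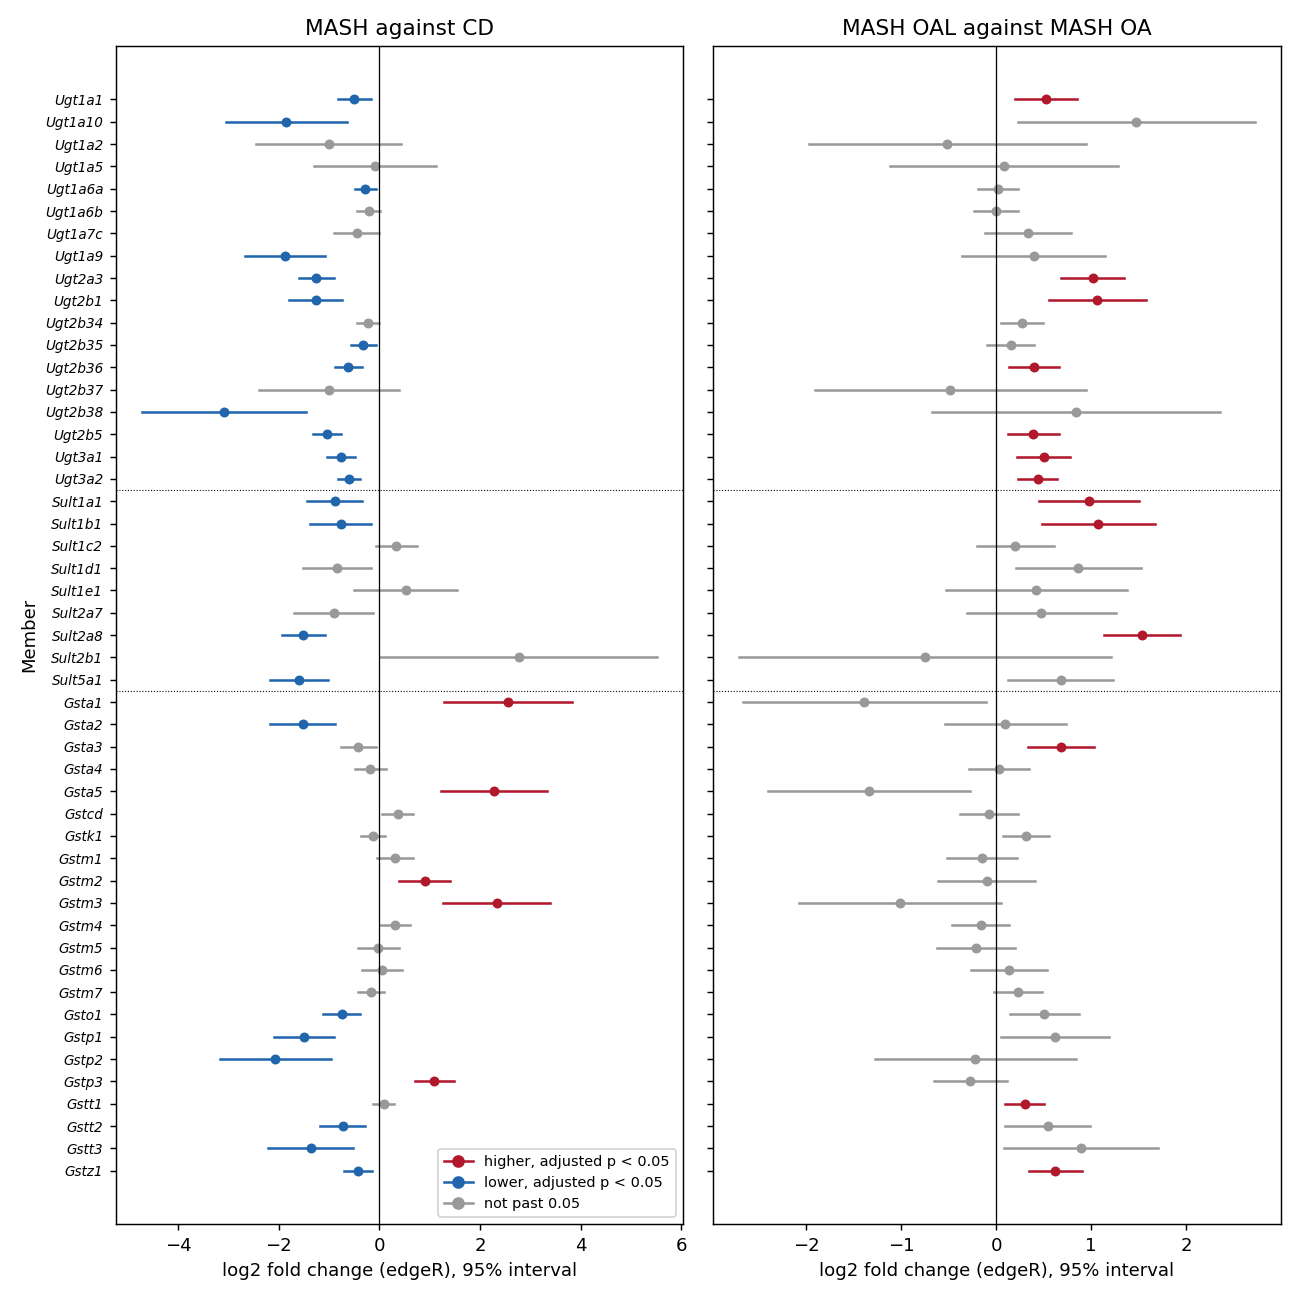
Log2 fold change of each of the 49 members with its 95% interval (edgeR), MASH against CD on the left and MASH OAL against MASH OA on the right, red where higher and blue where lower at adjusted p under 0.05. On the left 23 members fell and 5 rose; on the right 13 rose and none fell.

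C18:1 was then set against the MASH diet with no compound named. None of the 49 members passed between MASH OA and MASH livers (edgeR, lowest adjusted p = 0.770), and 0% of all genes were called. At an unadjusted p under 0.05 there were 3 members and 6.18% of all genes, and DESeq2 and limma voom also called none of the members. The median log2 fold change of the members was −0.15, and that of all genes 0.0027. Sult2a8 had 164, 229, 134 and 184 CPM in MASH OA livers and 292, 167 and 268 CPM in MASH livers, which overlap (log2 fold change −0.45, 95% interval −0.85 to −0.044). Gstz1 had 402, 571, 524 and 405 CPM in MASH OA livers and 562, 510.2 and 538 CPM in MASH livers (log2 fold change −0.17, 95% interval −0.45 to 0.10). For 46 of the 49 members the interval held 0.

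C18:1-leucine was likewise set against the MASH group. None of the 49 members passed between MASH OAL and MASH livers by edgeR, where 0.0702% of all genes were called (0.00638% higher and 0.0638% lower), and 11 members had an unadjusted p under 0.05 (18.1% of all genes). DESeq2 called 6 members higher and 1 lower, and limma voom 4 higher and 2 lower. Of all genes DESeq2 called 2.87% higher and 3.67% lower, and voom 1.42% higher and 2.41% lower. Libraries did not overlap for 12 members that were higher in MASH OAL and 4 that were lower, or 24.5% and 8.16%, beside 10.3% and 12.0% of all genes. Sult2a8 had 519, 558 and 466 CPM in MASH OAL livers and 292, 167 and 268 CPM in MASH livers. All 3 MASH OAL libraries were above all 3 MASH libraries, with the smallest adjusted p of the members (1.09 on the log2 scale, SE 0.20, adjusted p = 0.0588). Without MASH OA 2 or MASH OA 3, which are in neither group but enter the shared fit, the adjusted p was 0.0430 or 0.0373. With other single libraries left out it ran up to 0.224. Ugt2a3 had 249, 249 and 179.5 CPM in MASH OAL livers and 159.5, 112 and 138 CPM in MASH livers (log2 fold change 0.73, adjusted p = 0.0737). With 1 library left out its adjusted p ran from 0.0479 (without MASH OAL 4) to 0.249. Sult1a1 had 351, 327 and 288 CPM in MASH OAL livers and 180.4, 178 and 169 CPM in MASH livers, again without overlap (log2 fold change 0.87, adjusted p = 0.123). The largest negative values were those of Gsta5 (−1.83, adjusted p = 0.108) and Gsta1 (−1.79, adjusted p = 0.167). Gsta1 had 1.63, 7.11 and 11.7 CPM in MASH OAL livers and 19.0, 26.1 and 25.5 CPM in MASH livers, so each MASH OAL library was lower and the 3 were far from each other.

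C18:1-leucine and C18:1 differ by the leucine joined to the fatty acid, and the MASH OAL and MASH OA groups share diet and treatment time. Of the 49 members, 13 were higher in MASH OAL than in MASH OA livers and none was lower (edgeR, adjusted p under 0.05). That is 26.5% higher, beside 16.2% of all genes called, 7.34% higher and 8.89% lower. At an unadjusted p under 0.05 there were 24 members (49.0%) and 32.0% of all genes. The 13 were 7 UGT, 3 SULT and 3 GST. The median log2 fold change was 0.31 over the members and −0.015 over all genes, and libraries did not overlap for 16 members that were higher (32.7%, beside 13.5% of all genes) and for none that was lower (14.2% of all genes). Hepatocyte marker sums were also higher in each MASH OAL library than in any MASH OA library, and 4 of the 12 hepatocyte markers passed as higher. Recruited macrophage markers summed to 254 to 470.1 CPM in MASH OAL livers and 512 to 962 CPM in MASH OA livers, with 7 of 10 lower, and their part in the members' values was not tested. All 5 erythroid markers tested were higher in MASH OAL livers, and their part was not tested either. With groups taken from the treatment tags no member passed. Without the 2 libraries whose labels disagree 4 members were higher, Sult2a8, Ugt2a3, Ugt2b1 and Gsta3. Without MASH OAL 2, the library with most pancreatic transcripts, 3 members were higher, without MASH OA 1 or without MASH OA 4 there were 6, and without MASH OAL 1 there were 8. Without the 3 libraries rich in bile duct transcripts 3 were higher. The share of all genes called higher fell as well, to 1.76% without MASH OAL 2, 2.99% without MASH OA 1, 3.01% without MASH OA 4, 2.81% without MASH OAL 1, 0.885% without the bile duct libraries, 0.670% without those whose labels disagree and 0% with groups from the tags.

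Sult2a8 had 519, 558 and 466 CPM in MASH OAL livers and 164, 229, 134 and 184 CPM in MASH OA livers. The lowest MASH OAL library held over 2 times as much as the highest MASH OA library (2.89-fold higher; log2 fold change 1.53, SE 0.19, adjusted p = 0.00224). Ugt2a3 had 249, 249 and 179.5 CPM in MASH OAL livers and 104, 128, 106 and 108 CPM in MASH OA livers, again without overlap (2.02-fold higher; log2 fold change 1.02, SE 0.15, adjusted p = 0.00329). Both calls held with any 1 library left out, without the libraries with disagreeing labels, and without those rich in bile duct or pancreatic transcripts. With groups from the tags, which move MASH OAL 1 to OA and MASH OA 1 to MASH, neither passed: the log2 fold change was 0.94 for Sult2a8 (adjusted p = 0.364) and 0.54 for Ugt2a3 (adjusted p = 0.506).

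Gstz1, the zeta enzyme that isomerises maleylacetoacetate in tyrosine breakdown, had 747, 768 and 681 CPM in MASH OAL livers and 402, 571, 524 and 405 CPM in MASH OA livers, without overlap (1.54-fold higher, adjusted p = 0.00881). Its call held with any 1 library left out, but it was lost without the libraries with disagreeing labels (adjusted p = 0.0675), without those rich in bile duct (0.0586) or pancreatic transcripts (0.0571), and with groups from the tags (0.483). Ugt2b1 had 362, 636 and 463 CPM in MASH OAL livers and 229.6, 327, 144 and 231 CPM in MASH OA livers (2.09-fold higher, adjusted p = 0.0113). Gsta3 had 849.8, 1106 and 958 CPM in MASH OAL livers and 661, 733, 478 and 543 CPM in MASH OA livers (1.61-fold higher, adjusted p = 0.0145). Ugt3a2 averaged 355 ± 12.4 CPM in MASH OAL livers and 262 ± 34.0 CPM in MASH OA livers (SD, n = 3 and 4; adjusted p = 0.0114). In each of these 3 genes every MASH OAL library lies above every MASH OA library, and MASH OAL 2 is the highest. Without MASH OAL 2 none of the 3 passed (adjusted p = 0.0670 for Ugt2b1, 0.0771 for Gsta3 and 0.0545 for Ugt3a2). All 3 were also lost without the libraries rich in bile duct transcripts, without those rich in pancreatic transcripts and with groups from the tags. Ugt2b1 was lost with the compared groups alone as well, and Ugt3a2 without the libraries with disagreeing labels.

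Sult1a1 had 351, 327 and 288 CPM in MASH OAL livers and 119.7, 178, 197 and 159 CPM in MASH OA livers (1.97-fold higher, adjusted p = 0.0189). Ugt1a1 had 626, 565 and 522 CPM in MASH OAL livers and 325, 459, 427 and 382 CPM in MASH OA livers (1.43-fold higher, adjusted p = 0.0336). Ugt3a1 averaged 111 ± 5.81 CPM in MASH OAL livers and 78.8 ± 12.1 CPM in MASH OA livers (adjusted p = 0.0222). In all 3 no MASH OA library reached the lowest MASH OAL library. These 3 calls were each lost without MASH OA 1, without MASH OA 4, without MASH OAL 1 and without MASH OAL 2, with adjusted p between 0.0522 and 0.121. Sult1b1, which sulfates thyroid hormone and phenols, had 18.7, 32.8 and 29.2 CPM in MASH OAL livers and 12.1, 15.5, 13.0 and 10.5 CPM in MASH OA livers (adjusted p = 0.0211). It was lost without MASH OA 1 (0.0589), MASH OA 4 (0.0647) or MASH OAL 2 (0.0970), each an adjusted p. The remaining 3 calls were the least stable. Ugt2b36 (1.32-fold higher, adjusted p = 0.0399) was lost without CD 3, MASH 2, MASH OA 1, MASH OA 3, MASH OA 4, MASH OAL 2 or MASH OAL 4, with adjusted p up to 0.185. Gstt1, a theta enzyme that acts on small halogenated compounds (1.23-fold higher, adjusted p = 0.0478), was lost without any library but CD 1 or CD 4, with adjusted p up to 0.144. Ugt2b5 (1.31-fold higher, adjusted p = 0.0495) was lost without any library but CD 1 or MASH OA 2, with adjusted p up to 0.175. All of these calls, from Sult1a1 to Ugt2b5, were also lost without the libraries with disagreeing labels and with groups from the tags. They were lost as well without the libraries rich in bile duct transcripts and without those rich in pancreatic transcripts.

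Members that did not pass between MASH OAL and MASH OA included those most spread within the MASH OAL group. Gstp1 had 1179, 962 and 570.0 CPM in MASH OAL livers and 576, 704, 330.2 and 746 CPM in MASH OA livers (log2 fold change 0.62, adjusted p = 0.127). MASH OAL 4 lies inside the MASH OA range and MASH OAL 1 lies well above it. Gsta1 had 1.63, 7.11 and 11.7 CPM in MASH OAL livers and 20.3, 19.8, 8.82 and 22.5 CPM in MASH OA livers (log2 fold change −1.39, adjusted p = 0.127; 95% interval −2.67 to −0.11). Gstm3 had 9.11, 31.6 and 51.0 CPM in MASH OAL livers and 93.7, 38.3, 36.6 and 77.6 CPM in MASH OA livers (log2 fold change −1.01, adjusted p = 0.178). For Gsta1, Gsta5 and Gstm3, MASH OAL 1 was within the CD range and MASH OAL 4 was the highest of its group. Bile duct markers summed to 75.3 CPM in MASH OAL 1, 91.5 in MASH OAL 2 and 229 in MASH OAL 4, and their part in these levels was not tested. Ugt1a9 had 12.6, 21.2 and 37.7 CPM in MASH OAL livers and 20.4, 14.3, 14.1 and 23.8 CPM in MASH OA livers and overlapped (log2 fold change 0.39, adjusted p = 0.466), as did Gsta2 (log2 fold change 0.096, adjusted p = 0.852).

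MASH against CD and MASH OAL against MASH OA have no library in common. Of the 23 members that fell in MASH relative to CD, 11 were higher in MASH OAL than in MASH OA (47.8%), and 22 had a positive log2 fold change there. Of all genes that fell in MASH, 857 of 2363 were higher in MASH OAL (36.3%) and 2256 had a positive log2 fold change (95.5%, beside 95.7% of the members). Conversely, 11 of the 13 members higher in MASH OAL had fallen in MASH (84.6%, beside 74.5% of all genes higher in MASH OAL), and the other two were Gsta3 and Gstt1. Of the 5 members that rose in MASH, none passed between MASH OAL and MASH OA, beside 39.1% of all 3200 genes that rose and passed as lower. All 5 had a negative log2 fold change, as had 95.4% of those 3200 genes. Both comparisons were fitted with one estimate of spread over all libraries.

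**Figure D4:**
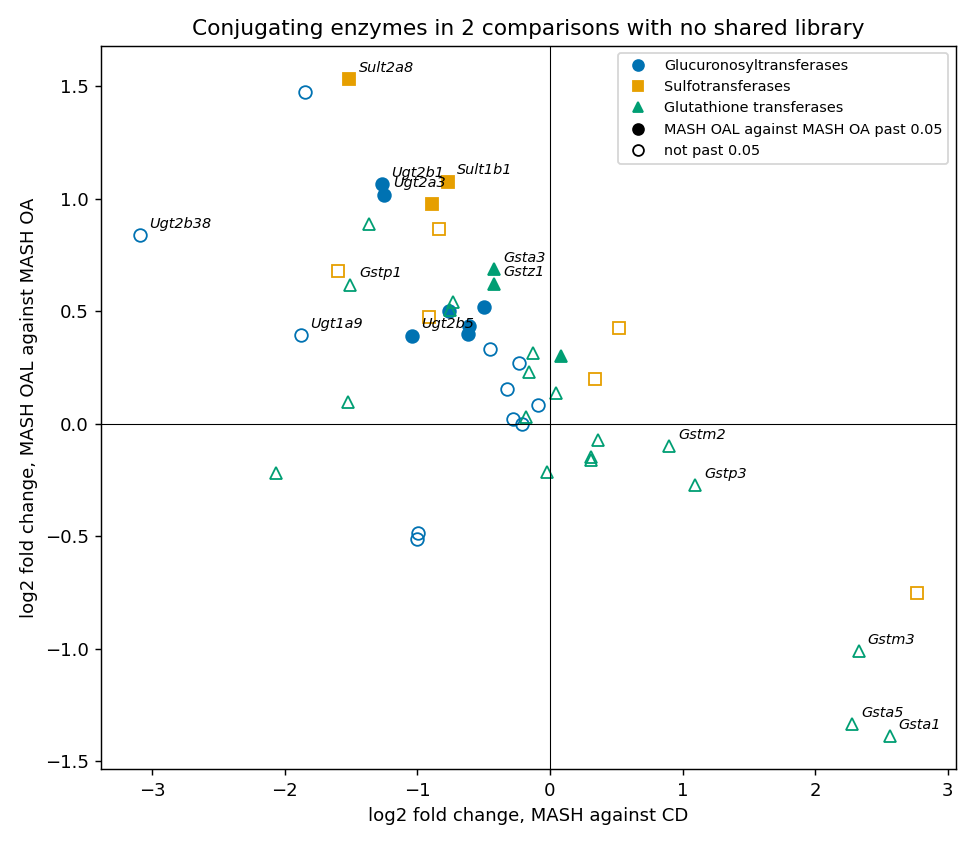
Log2 fold change of the 49 members, MASH against CD on the horizontal axis and MASH OAL against MASH OA on the vertical axis, a point per member and coloured by family. Filled points passed between MASH OAL and MASH OA. Of the 23 members that fell in MASH, 22 lie above the horizontal line, and the 5 that rose lie below it, shares that all genes show as well (95.5% of those that fell and 95.4% of those that rose).

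As levels, the MASH OAL mean lay between the MASH and CD means for 20 of the 23 members that fell in MASH, and the MASH OA mean for 3 of them. The median level of the 23 was 69.5% of CD in MASH OAL livers, 40.7% in MASH OA livers and 48.6% in MASH livers. For the 5 members that rose it was 170.3% of CD in MASH OAL livers, 346.6% in MASH OA livers and 487.6% in MASH livers. The 23 and the 5 were picked from the same MASH and CD libraries that set these means. That choice favours a mean between MASH and CD, and the same count was not made over all genes. These shares describe levels and are not tests. Over a whole family, the summed UGT level was 3452, 3967 and 3705 CPM in MASH OAL livers, 2578, 3089.9, 2367 and 2686 CPM in MASH OA livers, 3225, 2962 and 2996 CPM in MASH livers and 4548, 5504, 5133 and 5102 CPM in CD livers. Its libraries did not overlap between any 2 groups but MASH OA and MASH. The mean summed SULT level was 83.7% of CD in MASH OAL livers, 36.3% in MASH OA livers and 43.6% in MASH livers. The mean summed GST level was 79.8% of CD in MASH OAL livers, 61.3% in MASH OA livers and 71.2% in MASH livers. The mean hepatocyte marker sum was 78.4% of CD in MASH OAL livers, 52.8% in MASH OA livers and 62.2% in MASH livers.

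**Figure D5:**
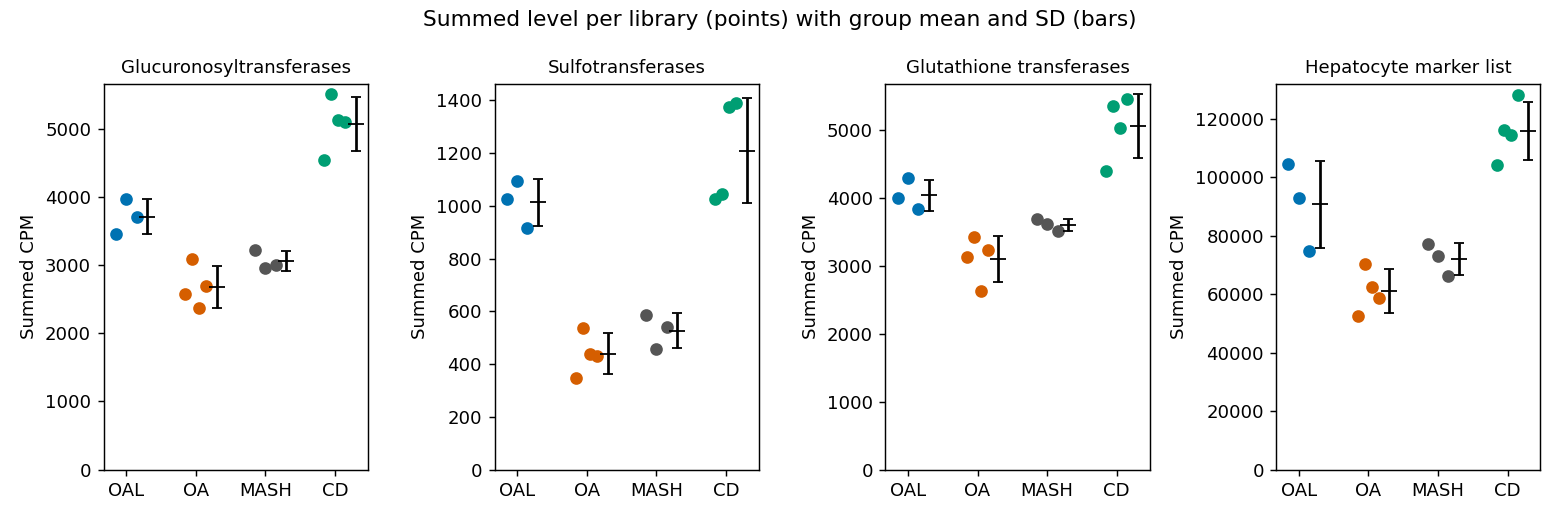
Summed level of the UGT, SULT and GST members in each library (points, CPM) with the group mean and SD (bars), for MASH OAL, MASH OA, MASH and CD, and the same for the 12 hepatocyte markers. For SULT the 3 MASH OAL libraries lie above all MASH OA and MASH libraries.

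Members also differed between libraries of one group. CD 1 was the lowest CD library for 17 of 22 GST and 12 of 18 UGT, and Ugt1a5 had 6.27 CPM there against 37.3 to 52.2 CPM in the other CD libraries. In the MASH OA group, MASH OA 2 was the highest library for 11 UGT and 9 GST, and MASH OA 3 the lowest for 11 UGT and 11 GST. MASH OAL 1 was the lowest MASH OAL library for 14 GST and 11 UGT. Ugt1a5 and Sult2b1 were picked out after their values were seen. Sult2b1, which sulfates cholesterol, reached 10 counts only in MASH OAL 4, MASH OA 1, MASH OA 3 and MASH 4, the 4 libraries with the highest bile duct marker sums.

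The supply of donors and the regulators were read from lists of other genes, whose counts stand beside 20.4% of all genes higher and 15.1% lower in MASH relative to CD, and 7.34% higher and 8.89% lower in MASH OAL relative to MASH OA. For glucuronic acid, 1 of 7 genes rose and 1 fell in MASH relative to CD: Gusb, the glucuronidase that removes the sugar again, rose (log2 fold change 0.62, adjusted p = 0.000569) and Dcxr fell (−0.68, adjusted p = 0.0353). In MASH OAL relative to MASH OA livers 2 of the 7 rose (Dcxr, 0.79, adjusted p = 0.0333; Gulo, 0.37, adjusted p = 0.0385) and Gusb fell (−0.36, adjusted p = 0.0336). For the sulfate donor, 2 of 8 fell in MASH, among them Papss2, a PAPS synthase (log2 fold change −0.62, adjusted p = 0.00838), which was the 1 gene of the list that was higher in MASH OAL than in MASH OA livers (0.67, adjusted p = 0.0136). For glutathione supply, 2 of 12 rose and 4 fell in MASH. Slc7a11, the cystine importer, rose most (log2 fold change 4.23, adjusted p = 0.00183) and was the 1 gene of the list that was lower in MASH OAL than in MASH OA livers (−2.53, adjusted p = 0.0244). Cth, which makes cysteine from cystathionine, fell in MASH (−1.45, adjusted p = 0.00891).

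Of 16 regulators of xenobiotic metabolism and hepatocyte identity, 1 rose and 5 fell in MASH relative to CD, and 2 rose and none fell in MASH OAL relative to MASH OA. Nr1i3, which encodes CAR, fell to 305 ± 53.3 CPM in MASH livers, against 579 ± 155 in CD livers (log2 fold change −0.92, adjusted p = 0.00523), and was higher in MASH OAL than in MASH OA livers (1.34, adjusted p = 0.00329). Hnf4a, a master factor of hepatocytes, fell in MASH (−0.72, adjusted p = 0.00534), and Nfe2l2, which encodes NRF2, was the 1 regulator that rose (0.55, adjusted p = 0.00949). Nr1h4, the bile acid receptor FXR, was the other regulator higher in MASH OAL (0.46, adjusted p = 0.0142). Of 6 CAR and PXR targets outside the families, 2 fell in MASH (Ces2a, −1.59, adjusted p = 0.000360; Cyp3a11, −0.92, adjusted p = 0.00805) and Ces2a was higher in MASH OAL than in MASH OA (0.91, adjusted p = 0.0188). Of 6 AHR targets, 1 rose and 2 fell in MASH, and Cyp1a2 was lower in MASH (−1.26, adjusted p = 0.00595) and higher in MASH OAL than in MASH OA (1.24, adjusted p = 0.0136). Of 13 NRF2 targets outside the families, 5 rose and 2 fell in MASH, led by the carbonyl reductase Cbr3 (1.93, adjusted p = 9.99e-05), and 5 fell and none rose in MASH OAL relative to MASH OA (Cbr3, −1.32, adjusted p = 0.00581). Slc7a11, Gclc, Gclm and Gsr count in both the glutathione and the NRF2 list. Nqo1 counts in both the NRF2 and the AHR list, and Abcc4 in both the NRF2 and the efflux list. Cyp2b9, a CAR and PXR target, and Cux2, a regulator, count also among the female-biased genes below.

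Of 17 other conjugating enzymes, 2 rose and 4 fell in MASH relative to CD, and 7 rose and none fell in MASH OAL relative to MASH OA. Hpgds, the sigma class glutathione transferase that makes prostaglandin D and whose symbol the rule does not match, rose in MASH (2.09, adjusted p = 0.000702). Gnmt, which methylates glycine, fell in MASH (−1.40, adjusted p = 0.00283), as did Baat, which joins bile acids to taurine or glycine (−0.63, adjusted p = 0.000709). Among the 7 that were higher in MASH OAL were Acsm1 (0.55, adjusted p = 0.00525) and Glyat (0.48, adjusted p = 0.00945), which serve glycine conjugation, and the methyltransferase Inmt (1.29, adjusted p = 0.0203). Of 9 efflux transporters, 3 rose and 1 fell in MASH, and Abcc1, which exports glutathione conjugates, rose in MASH (1.42, adjusted p = 1.2e-05) and was lower in MASH OAL than in MASH OA (−1.15, adjusted p = 0.00224). Of 12 male-biased liver genes, 8 fell in MASH and 6 were higher in MASH OAL than in MASH OA, and of 10 female-biased genes tested, 5 fell in MASH and 1 was higher in MASH OAL.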

How the data were processed

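RNA sequencing measured the liver RNA of 14 libraries; the labels' protocols name RNeasy for extraction and NEBNext Ultra II for library preparation. The values are expected counts, as the authors deposited them, one per gene and library, and fractional ones were rounded to whole counts. Per the submitters' processing notes the tools were HTSeq and DESeq2 1.42.1 and the build GRCm38, with no roles given. How shared reads were treated and which strand was counted are not stated there, so reads of a gene and of an overlapping or antisense gene cannot be told apart. Of the deposited files, 6 tables of the authors' comparisons were not used, because their group letters have no key in the labels.

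Columns were matched to samples by their numbers and groups read from titles. Genes were kept by filterByExpr (minimum count 10, minimum total 15), which left 15674. All 14 libraries were fitted together in edgeR 4.0.16 under R 4.3.3, with TMM scaling and its two-sided quasi-likelihood F test in robust mode, so the 4 comparisons share one estimate of spread, and p was adjusted over all tested genes by Benjamini and Hochberg with a threshold of 0.05. CPM uses TMM-scaled library sizes; levels between genes were divided by merged exon length (GENCODE M21, GRCm38). Counting error at 33821874 to 51107248 counts is small for all but the lowest members, and 5 members were under 10 counts in at least 1 library. Within groups no pair of libraries was an exact copy. The chi-square of counts per gene ran from 25.0 (CD 3 and CD 4) to 168 (MASH OAL 1 and MASH OAL 4). No threshold was set, and pairs across groups were not compared. The fit was also run on simulated data, and the outcome of that run is not given here.

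Alternatives were relative log expression scaling, other filters, the compared groups alone, a replicate block, DESeq2 1.42.0, voom in limma 3.58.1, groups from the treatment tags, and leaving out libraries. The text names, per comparison, up to 12 members with the smallest p that passed in each direction, the 10 smallest where fewer than 10 passed, the 3 members of each family with the highest level per kilobase, and up to 4 genes of each list. The members and the lists were chosen with earlier results of these data known. Figures were drawn with matplotlib 3.10.9.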

Additional observations from a re-analysis of the deposited data

Results flagged for a closer look

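Of 98 sets of 4 libraries examined, one for each of the 49 members in the MASH OA and CD groups, 10 held a library far from the other 3 by Dixon's test at its 95% critical value, and chance alone gives about 1 in 20. In the MASH OA group, Gsta5 was 1.55 CPM in MASH OA 3 against 2.83 CPM in the next library, Ugt2b35 was 149.2 CPM in MASH OA 3 against 161 CPM, and Gstm2 was 39.4 CPM in MASH OA 4 against 52.6 CPM. MASH OA 2 was the high library for Ugt2a3, with 127.9 CPM against 108 CPM in the next, and for Ugt3a2, with 312.9 CPM against 251 CPM. In the CD group, Gstp1 reached 2130.4 CPM in CD 2 against 1673 CPM in the next library, Ugt1a10 reached 1.61 CPM in CD 3 against 1.32 CPM, Ugt2b38 reached 43.5 CPM in CD 1 against 9.37 CPM, and Ugt2b37 reached 7.77 CPM in CD 1 against 1.61 CPM. Sult2b1 was at 0 CPM in CD 4 against 0.0252 CPM in the next library, all at under 10 counts. The MASH OAL and MASH groups have 3 libraries each and were not examined in this way.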

How the results depend on the processing

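Between MASH and CD, 18 of the 28 calls held with any 1 library left out. The number of members that fell ran from 16 (without MASH 4) to 26 (without CD 1) and the number that rose from 5 to 6; without the 3 libraries rich in bile duct transcripts 16 fell. Between MASH OA and MASH no member passed under any alternative that was run, and with groups from the treatment tags the log2 fold changes of Sult2a8 (0.26), Ugt2a3 (0.20) and Gsto1 (0.10) turned positive, none past the threshold; these tags move libraries between groups. Between MASH OAL and MASH, 1 member was higher with no filter, 1 with the compared groups alone, 6 by DESeq2 and 4 by limma voom, and 0 to 1 with 1 library left out; 1 was lower by DESeq2 and 2 by voom.

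Between MASH OAL and MASH OA, the count of 13 higher members became 20 by limma voom, 0 with groups from the tags, 4 without the libraries whose labels disagree, 3 without those rich in bile duct transcripts, 2 without those rich in pancreatic transcripts, and 3 (without MASH OAL 2) to 16 (without MASH OA 2) with 1 library left out, among them 6 without MASH OA 1, 6 without MASH OA 4 and 8 without MASH OAL 1. The count of lower members was 1 by DESeq2, 2 by voom and 0 to 2 with 1 library left out, with 2 without MASH OAL 4. Fewer libraries enter each such fit, and the cause of the other shifts was not tested. Whether replicate numbers pair the libraries is not stated. Correlations of deviations ran from −0.24 to 0.42 between same-numbered libraries. Libraries of unlike number were not compared, so these values cannot decide it. With the replicate number as a block 5 members rose and 24 fell in MASH. In that fit 13 were higher in MASH OAL than in MASH OA, 11 of them shared with the fit without the block. Changing TMM to relative log expression scaling or DESeq2 shifted the median of all genes by under 0.02. Each of these sets its scale by the typical gene, so a small shift was built in and cannot decide whether the scaling is right. The TMM factors applied to library size differed by group. They were 0.856 to 0.892 in CD, 1.02 to 1.12 in MASH, 1.04 to 1.21 in MASH OA and 0.911 to 1.02 in MASH OAL libraries. Their part in the members' values was not tested. Depth limits the members of lowest level, Ugt1a10, Ugt1a2, Sult1e1, Sult2b1 and Gsta5, which were under 10 counts in at least 1 library.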
